A study of Mus musculus with 6 samples.

Results

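The collagen chain genes are the protein-coding rows of the gene table whose symbol is Col, a number, the letter a and a second number, with nothing after it. Of 57180 rows, 44 met that rule, and 24 of the 44 had enough counts to be tested. They were compared between 3 libraries labelled Ov_SNHG1 and 3 libraries labelled Vector, all made from GC-1 spg cells, an immortalised mouse line derived from type B spermatogonia. Ov_SNHG1 libraries carry the genotype label SNHG1 Overexpression and Vector libraries the genotype label Vector Control, and all 6 share the tissue label testis, the cell type label Germ Cell and the treatment label Non-obstructive azoospermia. The cells were collected 24 hours after transfection, and poly(A) RNA was sequenced as stranded paired-end libraries. SNHG1 is a small nucleolar RNA host gene whose spliced product is a long non-coding RNA, and the series title links it to IL-17A signalling. The construct, its promoter and whether it carried a human or a mouse sequence were not stated in the labels, which also leave unsaid if each replicate was its own culture. The p-values cover the spread seen among these 6 libraries, part of which may be technical.

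Collagens are proteins, most of them secreted, in which 3 chains wind into a helix that requires a glycine at every 3rd residue. Fibrillar collagens I, III and V assemble into mixed fibrils that give tissue its tensile strength, collagens IV and VIII form sheet-like networks, collagen VI forms beaded filaments, and fibril-associated collagens sit on the fibril surface. The chains are hydroxylated and folded in the endoplasmic reticulum, exported, trimmed by propeptide-cleaving proteases and crosslinked by lysyl oxidases. In the testis, fibrillar and basement membrane collagens surround the seminiferous tubules and are made largely by peritubular and Sertoli cells.

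Coding stretches are shown for the 4 chains whose counts differed between the groups, because their glycine codons carry the feature that defines the family. In each line the capitals mark a GGN glycine codon at every 3rd codon, over 7 triplets or 63 bases at the start of the longest such run in the coding sequence, read from the longest protein-coding transcript of GENCODE M21 (GRCm38). Col1a2 and Col3a1 are chains of collagens I and III, Col5a2 of collagen V and Col8a1 of collagen VIII.
Col1a2: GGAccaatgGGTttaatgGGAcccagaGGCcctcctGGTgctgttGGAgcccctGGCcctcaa
Col3a1: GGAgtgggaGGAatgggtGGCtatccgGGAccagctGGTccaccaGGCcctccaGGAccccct
Col5a2: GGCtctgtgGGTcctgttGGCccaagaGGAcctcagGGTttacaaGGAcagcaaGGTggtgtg
Col8a1: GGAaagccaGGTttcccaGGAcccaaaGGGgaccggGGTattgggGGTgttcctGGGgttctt
The longest run without a break spanned 339 triplets in Col1a2 (74.1% of 1372 codons), 344 in Col3a1 (70.5% of 1464 codons) and 339 in Col5a2 (67.9% of 1497 codons). Col8a1 had a run of 61 triplets (24.6% of 744 codons). Among the other fibrillar chains tested, Col1a1, Col5a1, Col11a1 and Col11a2 each had 338 triplets, Col5a3 had 337 and Col27a1 had 217. The chains of the other classes that passed the filter had runs of 30 triplets (Col18a1) to 113 triplets (Col9a3 and Col22a1).

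Snhg1 was examined as a check of the labels and did not separate the groups. Its counts were 467, 555 and 487 in Ov_SNHG1 libraries, against 464, 402 and 385 in Vector libraries. The log2 fold change of Snhg1 was 0.14 ± 0.10 (SE, n = 3 per group), with a 95% interval of -0.09 to 0.37 and an adjusted p of 0.52 by edgeR, and the groups overlapped. Every direction given here is therefore that of the labels. Total counts ran from 19204858 to 21058425 in Ov_SNHG1 libraries and from 15521900 to 21095427 in Vector libraries, where a count of 0 allows up to 3 counts or 0.142 to 0.193 CPM (counts per 1000000 counts of the library, counting error only). Ov_SNHG1 replicate 1 stood apart from the other 2 libraries of its group on the second principal component of all tested genes (19.2% of the variance), at 28.69 against -9.104 and -13.76. Markers of the labelled cell type were nearly absent, since of 13 spermatogonial markers 1 (Gfra1) had enough counts to test and Zbtb16, Id4, Sall4, Kit, Ddx4 and Sohlh1 had 0 counts in all 6 libraries. Of 10 fibroblast or peritubular markers 7 were tested, with Thy1 at 0 counts. The summed level of the 10 was 1093 to 1182 CPM in Ov_SNHG1 libraries and 1109 to 1170 CPM in Vector libraries. Nearly all of that sum was Pdgfra, Pdgfrb, Prrx1, Twist1 and Dpt. Acta2 averaged 7.05 CPM in Ov_SNHG1 libraries and 8.4 CPM in Vector libraries, and Des 2.63 CPM in Ov_SNHG1 libraries and 2.26 CPM in Vector libraries. Myh11 had at most 7 and Cnn1 at most 6 counts in any library. Within that list Pdgfra was higher (log2 fold change 0.47 ± 0.07, adjusted p = 0.0143, edgeR) and Prrx1 lower (-0.37 ± 0.07, adjusted p = 0.045, edgeR) in Ov_SNHG1 libraries, and both calls were lost when any 1 Vector library was left out (adjusted p of 0.051 to 0.154, edgeR). That of Prrx1 was also lost without Ov_SNHG1 replicate 3 (adjusted p = 0.0909, edgeR). The summed level of 8 macrophage markers was 42.3 to 48.2 CPM in Ov_SNHG1 libraries and 33.9 to 34.6 CPM in Vector libraries, while Ptprc had at most 9 and Adgre1 at most 7 counts in any library. Most of the difference in that sum was Cd14, which averaged 24.4 CPM in Ov_SNHG1 libraries and 14.4 CPM in Vector libraries and was called higher (log2 fold change 0.76 ± 0.10, adjusted p = 0.00728, edgeR). The other 3 tested macrophage markers were not called. Lyz2 averaged 15.3 CPM in Ov_SNHG1 libraries and 15.4 CPM in Vector libraries, Cd68 3.83 CPM in Ov_SNHG1 libraries and 2.47 CPM in Vector libraries, and Csf1r 1.04 CPM in Ov_SNHG1 libraries and 1.43 CPM in Vector libraries, with adjusted p of 0.992, 0.0904 and 0.319 by edgeR. The groups did not overlap for Cd68 and Csf1r, which lay in opposite directions. No marker of Sertoli, Leydig, endothelial or epithelial cells was called. The summed levels in Ov_SNHG1 libraries were 61.3 to 71.5 CPM for Sertoli, 2.28 to 3.01 for Leydig, 1.28 to 1.87 for endothelial and 0.0514 to 0.104 for epithelial markers. In Vector libraries they were 59.0 to 77.1 CPM for Sertoli, 2.33 to 2.84 for Leydig, 1.55 to 1.85 for endothelial and 0 to 0.387 for epithelial markers. Most of the Sertoli sum was Sox9, at 56.2 to 63.7 CPM in Ov_SNHG1 libraries and 52.4 to 68.7 CPM in Vector libraries, while Wt1, Cldn11, Fshr and Gata1 had 0 counts in all 6 libraries. The part of these marker differences in the collagen results was not tested.

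Of the 24 tested collagen chain genes, edgeR called 4 at an adjusted p under 0.05. Col1a2, Col3a1 and Col5a2, all chains of fibrillar collagens, were lower in Ov_SNHG1 libraries, by 0.30, 0.52 and 0.28 on the log2 scale. Col8a1, a network collagen chain, was 2.46-fold higher. Over all 14605 tested genes the same rule called 2.40%, with 1.54% higher and 0.856% lower. With the calls included, 18 of the 24 members had a negative log2 fold change, against 48.7% of all tested genes, and their median log2 fold change was -0.21, against 0.007 over all tested genes. An unadjusted p under 0.05 was found for 9 of the 24 members and for 17.0% of all tested genes. In bulk RNA, fewer cells that make a collagen and less of its RNA per cell cannot be told apart.

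**Figure D1:**
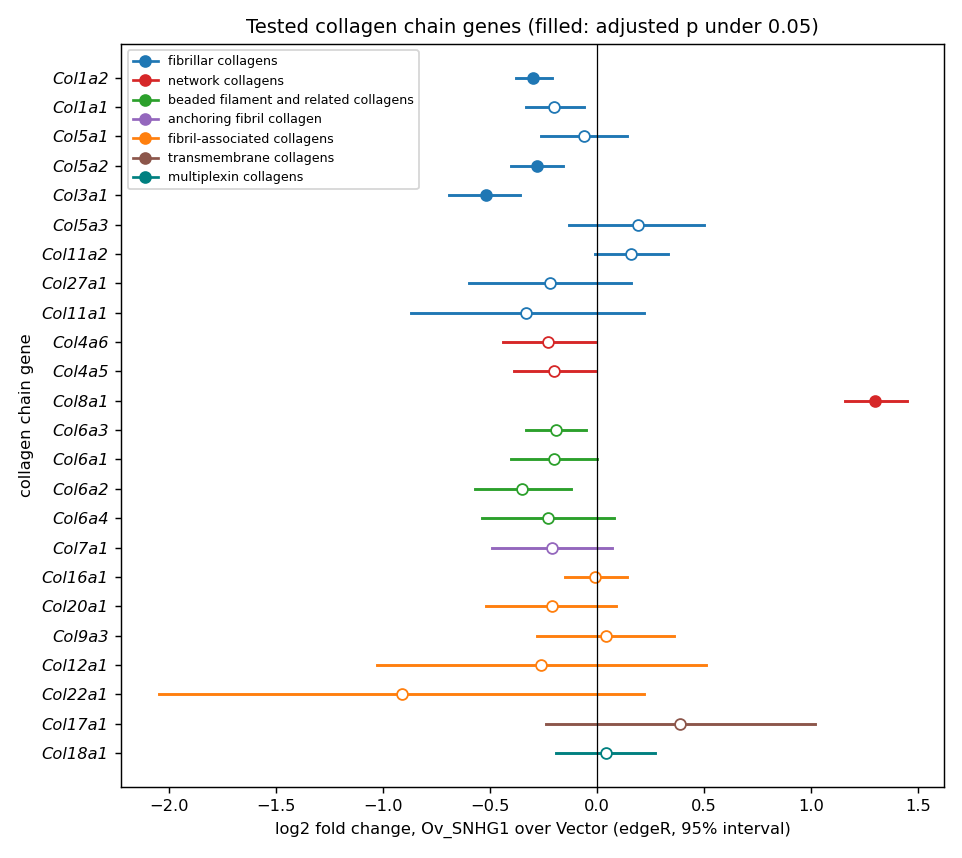
Log2 fold change, Ov_SNHG1 over Vector, of the 24 tested collagen chain genes, grouped by collagen class. Points are edgeR estimates from 3 libraries per group, bars are 95% intervals, and filled points passed an adjusted p of 0.05. Most points lie left of 0, and Col8a1 at 1.30 lies apart on the right.

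The count of called members depended on which libraries entered the fit. Without Ov_SNHG1 replicate 1 edgeR called 10 members, which included the same 4, against 5.42% of all genes tested in that fit. The other 6 were Col4a5, Col4a6, Col6a1, Col6a2, Col6a3 and Col20a1, all lower, with log2 fold changes of -0.25 (Col6a3) to -0.47 (Col6a2) and adjusted p of 0.008 to 0.0464 by edgeR. Leaving out Ov_SNHG1 replicate 2 gave 2 called members (1.09% of all genes tested) and leaving out Ov_SNHG1 replicate 3 gave 3 (1.18%). Leaving out Vector replicate 1, 2 or 3 gave 2, 3 and 1 called members, against 0.828%, 1.01% and 0.957% of all genes tested. DESeq2 on all 6 libraries called 5 members and 5.45% of genes, the 5th being Col6a2. Col8a1 was among those called in each of these fits.

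Collagen I is the main fibrillar collagen of connective tissue and is built from chains encoded by Col1a1 and Col1a2. Col1a2 (ENSMUSG00000029661, chromosome 6, 4504814 to 4541544 in the deposited table, whose build is not named) had 13275, 13169 and 13081 CPM in Ov_SNHG1 libraries, against 16352, 15656 and 16512 CPM in Vector libraries. All 3 Ov_SNHG1 libraries lay within a narrow band below the lowest Vector library. Col1a2 averaged 13175 ± 96.8 CPM in Ov_SNHG1 libraries and 16173 ± 455 CPM in Vector libraries (SD, n = 3). Its log2 fold change was -0.30 ± 0.04 (SE; 95% interval -0.38 to -0.21; adjusted p = 0.00797, edgeR). That call was lost without Vector replicate 1 (adjusted p = 0.051, edgeR) and without Vector replicate 3 (adjusted p = 0.0672, edgeR).

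Col1a1, the partner chain (chromosome 11, 94827050 to 94843868), had 4715, 4619 and 4198 CPM in Ov_SNHG1 libraries, against 5126, 4946 and 5423 CPM in Vector libraries. The groups did not overlap here either, but the Ov_SNHG1 libraries were spread more widely than for Col1a2. Its log2 fold change of -0.20 ± 0.06 (SE, n = 3 per group) had a 95% interval of -0.33 to -0.06 and an adjusted p of 0.15 by edgeR. With the libraries' trends on GC content and transcript length removed, the adjusted p of Col1a1 was 0.0239 by edgeR, at a log2 fold change of -0.24.

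Collagen III, encoded by Col3a1, copolymerises with collagen I in extensible tissues. Col3a1 (ENSMUSG00000026043, chromosome 1, 45350698 to 45388866) had 559.2, 499.1 and 473.2 CPM in Ov_SNHG1 libraries, against 713.7, 722.5 and 766.3 CPM in Vector libraries. The lowest Vector library stood well above the highest Ov_SNHG1 library, and Ov_SNHG1 replicate 1 was the nearest to the Vector libraries. At -0.52 ± 0.07 (SE, n = 3 per group; 95% interval -0.69 to -0.36; adjusted p = 0.0103, edgeR) the log2 fold change was the most negative of the 3 lower calls. The call was lost without Ov_SNHG1 replicate 2 (adjusted p = 0.0511, edgeR) and without Vector replicate 3 (adjusted p = 0.0514, edgeR).

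Collagen V regulates the start and the diameter of collagen I fibrils. Col5a2 (ENSMUSG00000026042, chromosome 1, 45413481 to 45542442) lies beside Col3a1, with 24614 bases between their deposited spans. It had 765.9, 776.2 and 727 CPM in Ov_SNHG1 libraries, against 944.1, 886.6 and 923.5 CPM in Vector libraries, with no overlap. Its log2 fold change was -0.28 ± 0.05 (SE, n = 3 per group; 95% interval -0.40 to -0.16; adjusted p = 0.0321, edgeR). This was the least stable of the 4 calls: leaving out any 1 library other than Ov_SNHG1 replicate 1 gave an adjusted p of 0.0751 to 0.132 by edgeR, and testing without a filter on low counts gave 0.0682.

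The 2 other collagen V chains were not called. Col5a1 had 1592, 1436 and 1263 CPM in Ov_SNHG1 libraries, against 1534, 1381 and 1560 CPM in Vector libraries, and the groups overlapped. Its log2 fold change was -0.06 ± 0.09 (SE, adjusted p = 0.76, edgeR). Col5a3 had 511.3, 374.7 and 344.4 CPM in Ov_SNHG1 libraries, against 343.1, 353.8 and 382.4 CPM in Vector libraries. Ov_SNHG1 replicate 1 lay above the Vector range and the other 2 Ov_SNHG1 libraries did not. Without replicate 1 the log2 fold change of 0.19 ± 0.14 (SE, adjusted p = 0.513, edgeR) became -0.00193.

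The remaining fibrillar chains were present at low levels. Col11a2, a collagen XI chain, averaged 30.2 ± 1.74 CPM in Ov_SNHG1 libraries and 27.1 ± 0.31 CPM in Vector libraries (SD, n = 3), with no overlap and an adjusted p of 0.323 by edgeR. Col11a1 averaged 1.29 CPM in Ov_SNHG1 libraries and 1.63 CPM in Vector libraries, and Col27a1 averaged 5.94 CPM in Ov_SNHG1 libraries and 6.94 CPM in Vector libraries. Neither passed the test (adjusted p = 0.515 and 0.53, edgeR). Col2a1, the main cartilage collagen, had 1, 2 and 7 counts in Ov_SNHG1 libraries and 2, 1 and 1 counts in Vector libraries, and Col24a1 had 4, 3 and 0 counts in Ov_SNHG1 libraries and 1, 1 and 2 counts in Vector libraries. Both fell below the filter.

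**Figure D2:**
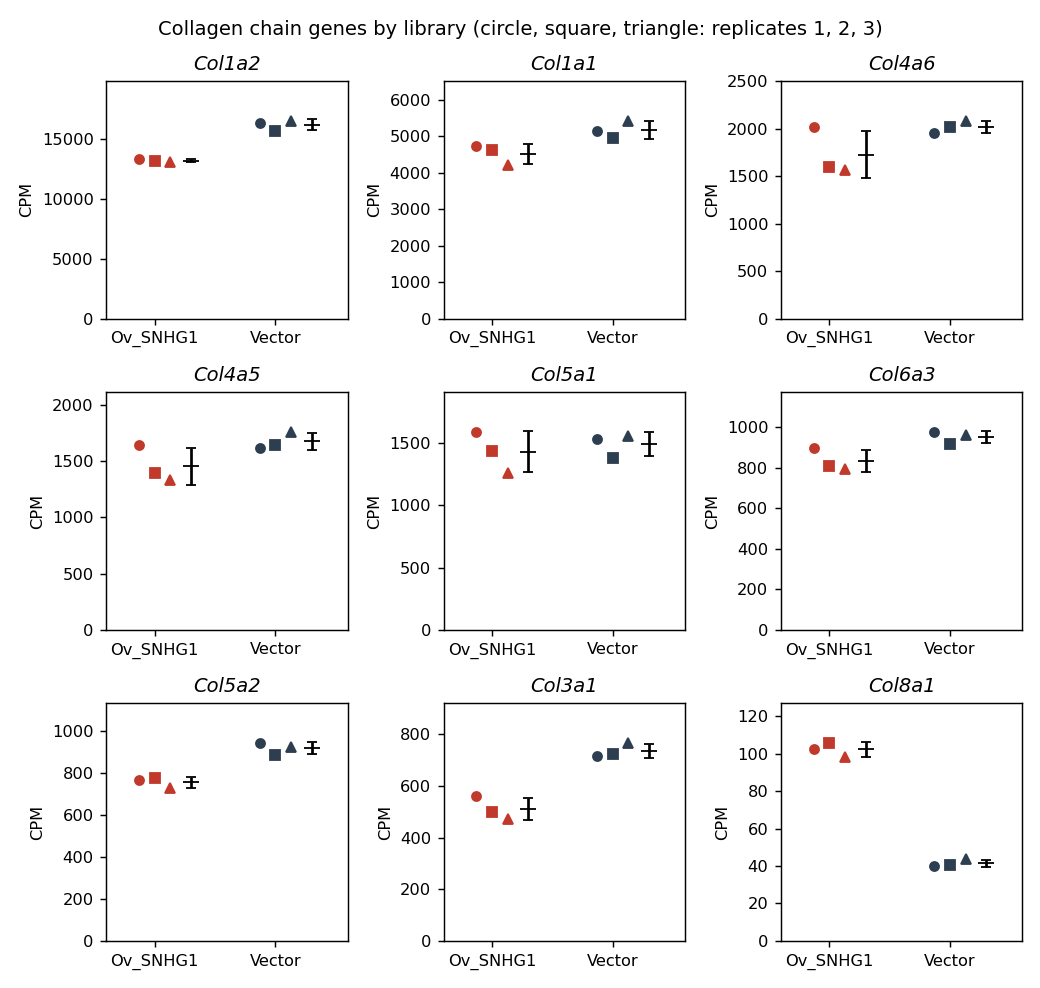
CPM (linear axes from 0) in each library for the 8 tested collagen chain genes with the highest mean CPM and for Col8a1, with circles, squares and triangles for replicates 1, 2 and 3 and bars for the mean ± SD of 3 libraries. The groups do not overlap for Col1a2, Col1a1, Col6a3, Col5a2, Col3a1 and Col8a1 and overlap for Col4a6, Col4a5 and Col5a1.

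Network collagens held the single member called higher. Col8a1 encodes a short-chain collagen known from the subendothelial and corneal basement membranes and from smooth muscle cells of injured vessels. Col8a1 (ENSMUSG00000068196, chromosome 16, 57444621 to 57575100) had 102.8, 105.8 and 98.3 CPM in Ov_SNHG1 libraries, from 2001, 2227 and 1893 counts. Vector libraries had 40.2, 40.6 and 43.7 CPM, from 844, 629 and 805 counts. The groups were far apart and each was tight, at 102.3 ± 3.79 CPM in Ov_SNHG1 libraries and 41.5 ± 1.91 CPM in Vector libraries (SD, n = 3). The log2 fold change of 1.30 ± 0.06 (SE) had a 95% interval of 1.16 to 1.45 and an adjusted p of 3.13e-05 by edgeR. In 15 alternative fits it ranged from 1.27 to 1.34, with adjusted p of at most 0.00146. Its partner chain Col8a2 had 1, 0 and 1 counts in Ov_SNHG1 libraries and 0, 2 and 2 counts in Vector libraries, so no change in Col8a2 was detectable at this depth.

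Collagen IV is the network collagen of basement membranes, and its chains are encoded by gene pairs that lie head to head. In these cells the pair on chromosome X carried nearly all collagen IV counts. Col4a6 had 2015, 1598 and 1568 CPM in Ov_SNHG1 libraries, against 1956, 2019 and 2084 CPM in Vector libraries. Col4a5, whose deposited span lies 1308 bases from that of Col4a6, had 1641, 1392 and 1332 CPM in Ov_SNHG1 libraries, against 1615, 1646 and 1760 CPM in Vector libraries. In both genes Ov_SNHG1 replicate 1 lay inside the Vector range and the other 2 Ov_SNHG1 libraries lay below it. The log2 fold changes were -0.23 ± 0.09 for Col4a6 and -0.20 ± 0.08 for Col4a5 (SE, n = 3 per group), with adjusted p of 0.279 and 0.262 by edgeR. Without Ov_SNHG1 replicate 1 they were -0.35 and -0.30, with adjusted p of 0.008 and 0.027 by edgeR. The count of Col4a6 was 1.15 to 1.23 times that of Col4a5 in every library.

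The collagen IV chains found in nearly all basement membranes were close to absent. Col4a1 had 1, 0 and 3 counts in Ov_SNHG1 libraries and 1, 5 and 3 counts in Vector libraries, and Col4a2 had 2, 2 and 0 counts in Ov_SNHG1 libraries and 0, 3 and 7 counts in Vector libraries. Col4a3 and Col4a4, which join Col4a5 in kidney and lung basement membranes, had 0 counts in all Ov_SNHG1 libraries and at most 3 counts in a Vector library. Col10a1, a network collagen of growth plate cartilage, had 1 count in all 6 libraries together.

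Collagen VI forms beaded filaments at the border between cells and interstitial matrix. Col6a3 had 898.8, 807.8 and 795.1 CPM in Ov_SNHG1 libraries, against 978.5, 920.1 and 960.5 CPM in Vector libraries. Col6a1 had 608.4, 505.9 and 493.7 CPM in Ov_SNHG1 libraries, against 600, 591 and 651.3 CPM in Vector libraries. The groups did not overlap for Col6a3, and for Col6a1 they overlapped through Ov_SNHG1 replicate 1. Col6a2 averaged 211.6 ± 28.9 CPM in Ov_SNHG1 libraries and 269.2 ± 13.4 CPM in Vector libraries (SD, n = 3), with no overlap. Log2 fold changes were -0.19 ± 0.06 for Col6a3, -0.20 ± 0.09 for Col6a1 and -0.35 ± 0.10 for Col6a2 (SE, n = 3 per group), and edgeR gave adjusted p of 0.17, 0.303 and 0.124. DESeq2 called Col6a2 (adjusted p = 0.0202). Col6a4 averaged 5.94 CPM in Ov_SNHG1 libraries and 6.96 CPM in Vector libraries (adjusted p = 0.427, edgeR). Col6a5 had 0, 1 and 3 counts in Ov_SNHG1 libraries and 0, 4 and 3 counts in Vector libraries, and Col6a6 had 1, 2 and 0 counts in Ov_SNHG1 libraries and 3, 1 and 3 counts in Vector libraries. Col26a1 and Col28a1, grouped with this class, had 0 counts in all 6 libraries.

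Members of the other classes showed no call. Col16a1, the main fibril-associated chain here, had 632.8, 605.6 and 558.3 CPM in Ov_SNHG1 libraries, against 595.2, 577.6 and 632.3 CPM in Vector libraries, and its log2 fold change was -0.01 ± 0.06 (SE; 95% interval -0.15 to 0.14; adjusted p = 0.969, edgeR). The groups were interleaved. Col18a1, whose C-terminal fragment is endostatin, averaged 249.4 ± 36.4 CPM in Ov_SNHG1 libraries and 243.1 ± 9.87 CPM in Vector libraries (SD, n = 3; adjusted p = 0.882, edgeR). Col7a1, the anchoring fibril chain of skin, averaged 18.3 CPM in Ov_SNHG1 libraries and 21.2 CPM in Vector libraries (adjusted p = 0.415, edgeR). Col17a1, a transmembrane collagen of hemidesmosomes, averaged 3.43 CPM in Ov_SNHG1 libraries and 2.59 CPM in Vector libraries (adjusted p = 0.504, edgeR). The other 4 fibril-associated chains had adjusted p of 0.382 to 0.907 by edgeR. In Ov_SNHG1 libraries Col20a1 averaged 19.5 CPM, Col9a3 4.64, Col12a1 1.29 and Col22a1 0.58 CPM. In Vector libraries Col20a1 averaged 22.6 CPM, Col9a3 4.50, Col12a1 1.54 and Col22a1 1.08 CPM. Col20a1 overlaps the long non-coding RNA row 9230112E08Rik, whose level was 52.3% of its own, Col18a1 overlaps Slc19a1 at 8.38%, and Col3a1 overlaps the miRNA row Gm54819 at 3.23%. No source used here gives the strand setting of the counting, so reads of such overlapping pairs may not be told apart.

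The other 8 members without enough counts had at most 4 counts in any library. Col14a1 had 1, 0 and 1 counts in Ov_SNHG1 libraries and 1, 4 and 0 counts in Vector libraries. Col9a1 had 2, 0 and 1 counts in Ov_SNHG1 libraries and 1, 1 and 0 counts in Vector libraries, while Col15a1 had 0 counts in Ov_SNHG1 libraries and 2, 0 and 0 counts in Vector libraries. Col19a1 had 0, 2 and 0 counts in Ov_SNHG1 libraries and 0 counts in Vector libraries. Col9a2, Col13a1, Col23a1 and Col25a1 had 0 counts in all 6 libraries. No untested member exceeded 14 counts over all 6 libraries, whereas the tested member with the fewest had 94.

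Levels of different chains were compared per length of transcript, because a longer RNA gives more fragments. With the GENCODE M21 lengths, Col1a2 had 2464 CPM per kilobase in Ov_SNHG1 libraries and 3024 in Vector libraries, and Col1a1 had 760.7 in Ov_SNHG1 libraries and 871 in Vector libraries. Next in Ov_SNHG1 libraries came Col4a6 at 259.8, Col4a5 at 222.6 and Col5a1 at 170.2 CPM per kilobase, and in Vector libraries the same genes stood at 303.8, 256.1 and 177.5. Col3a1 had 91.75 CPM per kilobase in Ov_SNHG1 libraries and 131.9 in Vector libraries, and Col8a1 had 20.02 in Ov_SNHG1 libraries and 8.124 in Vector libraries. The gene length used matters for Col1a2: the length implied by its deposited FPKM (fragments per kilobase and 1000000 counts) was 16209 bases, 3.03 times the 5348 bases of the GENCODE M21 transcript, against 1.17 times for Col1a1. In deposited FPKM the means were therefore closer, at 813.1 in Ov_SNHG1 libraries and 995 in Vector libraries for Col1a2 and at 650.7 in Ov_SNHG1 libraries and 742.8 in Vector libraries for Col1a1. On both scales the order Col1a2, Col1a1, Col4a6, Col4a5 and Col5a1 held in both groups.

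**Figure D3:**
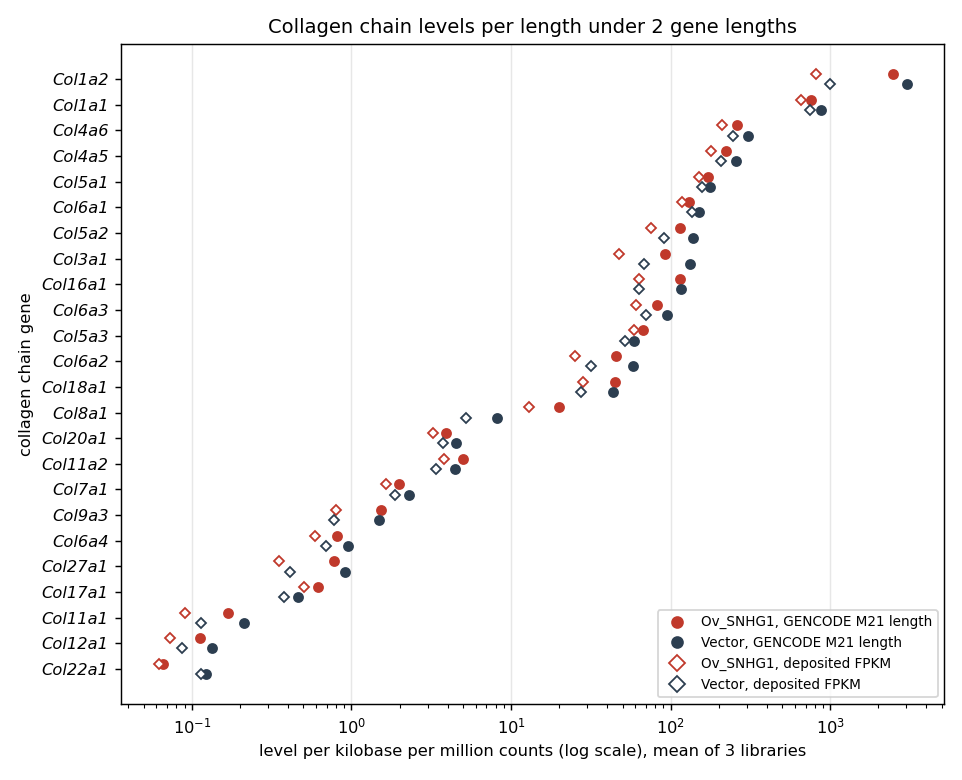
Mean level per kilobase per 1000000 counts (log axis) of the 24 tested collagen chain genes in 3 Ov_SNHG1 and 3 Vector libraries, under GENCODE M21 transcript lengths (filled circles) and as deposited FPKM (open diamonds). Col1a2 is highest on both scales, and the diamonds lie furthest left of their circles for Col1a2, at 813.1 against 2464 in Ov_SNHG1 libraries.

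As a pool, the 44 genes held 2.661% ± 0.121 of all counts in Ov_SNHG1 libraries and 3.127% ± 0.1 in Vector libraries (SD, n = 3), without overlap and at a ratio of 0.851. No test was made on such sums. Col1a2 supplied 50.6% of the collagen counts over the 6 libraries and Col1a1 16.7%, as shares of counts and not of molecules. Fibrillar chains held 2.084% ± 0.0618 in Ov_SNHG1 libraries and 2.481% ± 0.0816 in Vector libraries, and chains of the beaded filament class 0.1588% ± 0.0145 in Ov_SNHG1 libraries and 0.1838% ± 0.00636 in Vector libraries (SD, n = 3), both without overlap. Network chains, the class with the next largest sum after the fibrillar one, held 0.3285% ± 0.0407 in Ov_SNHG1 libraries and 0.3725% ± 0.0146 in Vector libraries (SD, n = 3), and the groups overlapped. The groups also overlapped for the other 4 classes, whose ratios of Ov_SNHG1 over Vector were 0.993 for fibril-associated, 1.03 for multiplexin, 0.866 for anchoring fibril and 1.33 for transmembrane chains. Without Col1a1, Col1a2 and Col3a1 the other 41 genes held 0.8405% ± 0.0875 in Ov_SNHG1 libraries and 0.9257% ± 0.0325 in Vector libraries (SD, n = 3), and the groups overlapped.

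Ratios of chains that share a helix or, for Col3a1 and Col1a1, a fibril do not depend on library scaling. Of 6 planned pairs, 4 had both chains above the filter, and 3 libraries against 3 cannot give an exact two-sided permutation p under 0.1. The ratio of Col1a2 to Col1a1 counts was 2.82, 2.85 and 3.12 in Ov_SNHG1 libraries, against 3.19, 3.17 and 3.04 in Vector libraries, with overlap (exact permutation p = 0.2, 0.2 adjusted over 4 pairs). The ratio of Col5a2 to Col5a1 was 0.481, 0.541 and 0.576 in Ov_SNHG1 libraries, against 0.616, 0.642 and 0.592 in Vector libraries. All Ov_SNHG1 values of Col5a2 to Col5a1 lay below all Vector values. The same held for Col6a2 to Col6a1, at 0.402, 0.396 and 0.385 in Ov_SNHG1 libraries against 0.442, 0.437 and 0.436 in Vector libraries. It also held for Col3a1 to Col1a1, at 0.119, 0.108 and 0.113 in Ov_SNHG1 libraries against 0.139, 0.146 and 0.141 in Vector libraries. Each of these 3 pairs had the smallest p that the design allows, 0.1 by the exact permutation test and 0.133 adjusted over 4 pairs, which does not pass 0.05. The mean log2 ratios differed by -0.21 for Col5a2 to Col5a1, by -0.15 for Col6a2 to Col6a1 and by -0.33 for Col3a1 to Col1a1.

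**Figure D4:**
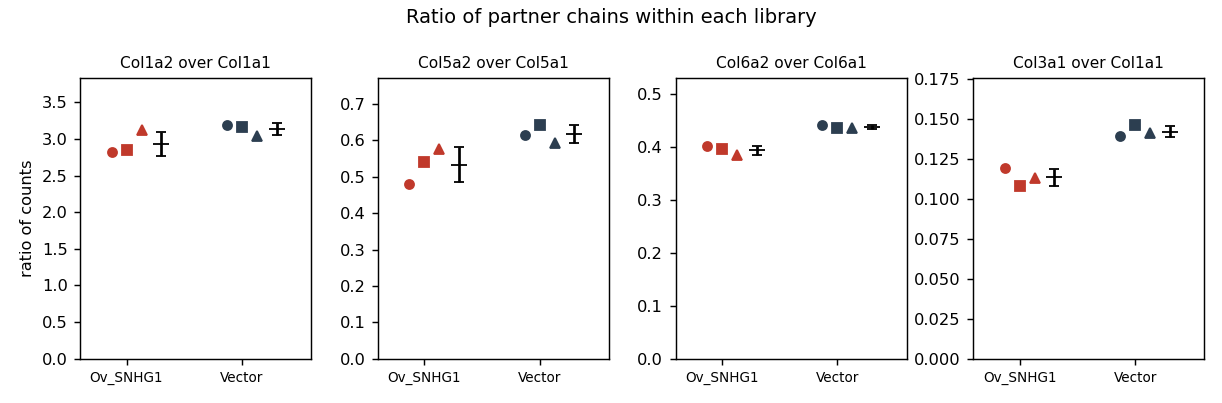
Ratio of the counts of partner chains within each library (linear axes from 0), with Ov_SNHG1 left of Vector, circles, squares and triangles for replicates 1, 2 and 3, and bars for the mean ± SD of 3 libraries. The groups overlap for Col1a2 over Col1a1 and lie apart for the other 3 pairs, with Ov_SNHG1 lower.

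Within each group, the rank of the libraries was uneven over the members. Ov_SNHG1 replicate 1 was the highest of its group in 16 of 24 members (66.7%), against 39.4% of all tested genes, and Ov_SNHG1 replicate 3 was the lowest in 18 (75.0%), against 32.7%. Among Vector libraries, replicate 3 was the highest in 16 members (66.7%), against 32.8% of all tested genes. In CPM, 6 members were lower and 2 higher in Ov_SNHG1 libraries without overlap of the groups, where 12.3% and 11.4% of all tested genes were. The 6 were Col1a1, Col1a2, Col3a1, Col5a2, Col6a2 and Col6a3, and the 2 were Col8a1 and Col11a2.

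**Figure D5:**
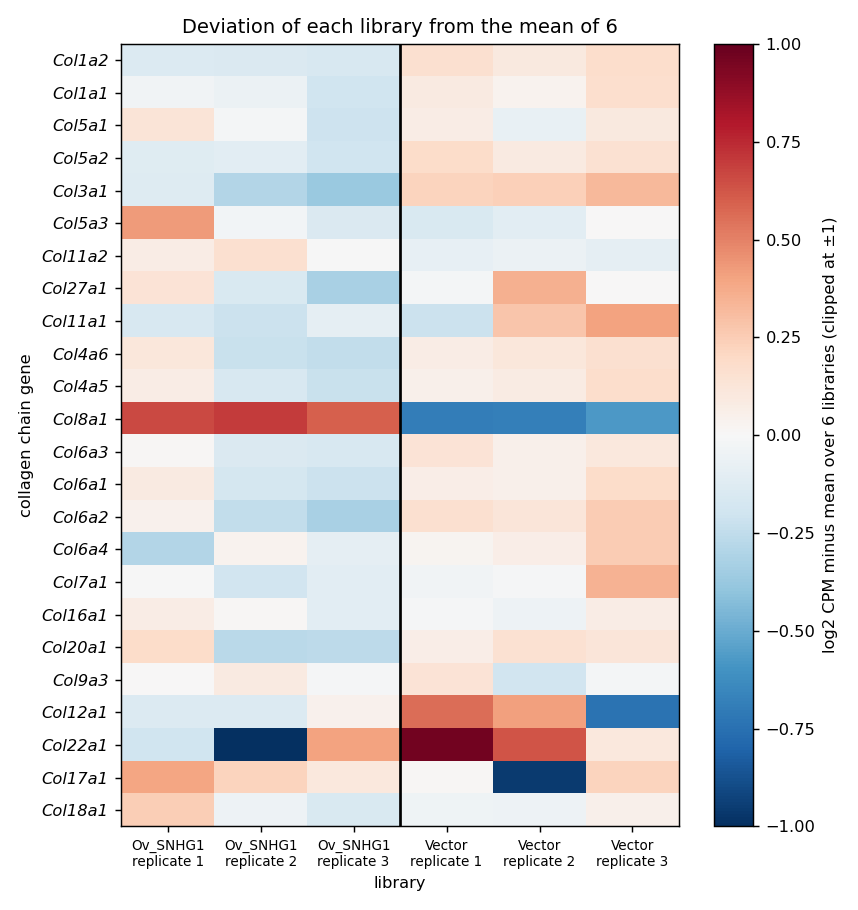
Deviation of each library's log2 CPM from the gene's mean over 6 libraries for the 24 tested collagen chain genes (red above, blue below, clipped at ±1), with the 3 Ov_SNHG1 libraries left of the line and the 3 Vector libraries right of it. Ov_SNHG1 replicate 3 is the lowest of its group in 18 of the 24 rows, and Col8a1 is the row with red on the left and blue on the right.

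Chain transcripts were also distinguished by length and base composition, which the rule did not use. Tested members had a median GENCODE M21 transcript length of 6083 bases and 56.2% GC, against 2749 bases and 49.9% over all tested genes. With the libraries' GC and length trends removed, the log2 fold changes were -0.34 for Col1a2, -0.54 for Col3a1, -0.25 for Col5a2 and 1.34 for Col8a1. All were still called by edgeR (adjusted p of 3.48e-05 to 0.0255). With the replicate number as a further term, Col5a2 was not called (adjusted p = 0.135, edgeR), and Col1a2, Col3a1 and Col8a1 were.

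Promoters are shown for 3 of the 4 called genes, because Col1a2 and Col3a1 were lower together and Col8a1 was higher. Each covers 250 bases before to 50 bases after the RefSeq start on GRCm38.p6, at chr6:4505368-4505667 on the plus strand for Col1a2, chr1:45311288-45311587 on the plus strand for Col3a1 and chr16:57754688-57754987 on the minus strand for Col8a1, and Col5a2 is named only. Capitals mark matches on either strand to CCAAT, to the GC box core GGGCGG and to the element TATAAA.
Col1a2: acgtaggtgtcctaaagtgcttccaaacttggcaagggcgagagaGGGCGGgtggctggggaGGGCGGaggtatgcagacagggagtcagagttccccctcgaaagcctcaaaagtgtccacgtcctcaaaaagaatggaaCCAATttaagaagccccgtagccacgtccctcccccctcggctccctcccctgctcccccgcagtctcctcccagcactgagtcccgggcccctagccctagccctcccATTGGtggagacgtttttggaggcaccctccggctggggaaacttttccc
Col3a1: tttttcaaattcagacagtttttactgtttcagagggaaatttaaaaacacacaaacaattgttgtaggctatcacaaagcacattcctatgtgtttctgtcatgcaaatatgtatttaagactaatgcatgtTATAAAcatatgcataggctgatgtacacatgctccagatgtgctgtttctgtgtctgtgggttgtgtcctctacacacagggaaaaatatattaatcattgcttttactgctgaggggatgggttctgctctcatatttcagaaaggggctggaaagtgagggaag
Col8a1: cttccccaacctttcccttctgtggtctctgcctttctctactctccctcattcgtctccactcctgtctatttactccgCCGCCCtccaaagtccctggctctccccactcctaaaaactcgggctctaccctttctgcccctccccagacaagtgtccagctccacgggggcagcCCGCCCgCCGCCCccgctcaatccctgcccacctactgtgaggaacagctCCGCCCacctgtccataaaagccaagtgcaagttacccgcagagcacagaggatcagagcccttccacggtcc
Col1a2 holds CCAAT at -109 to -105 and, on the other strand, at 1 to 5, and GGGCGG at -205 to -200 and -188 to -183, counted from the start site. Col3a1 holds TATAAA at -117 to -112. Col8a1 holds GGGCGG on the other strand at 4 places, of which the nearest to the start lies at -23 to -18. Among 32851 promoters of the same length, 37.4% hold CCAAT, 35.7% hold GGGCGG and 13.6% hold TATAAA. Of 21 promoter entries that matched 19 of the 24 tested members, 9 hold CCAAT, 15 hold GGGCGG and 3 hold TATAAA. The 32851 promoters were not limited to genes that passed the filter, so these shares are not like for like. Neither TGANTCA, the AP-1 consensus, nor the kappaB consensus was found in the 3 printed windows, and 7.81% of all promoters hold TGANTCA and 8.46% the kappaB consensus. Among the 21 entries of tested members, 1 holds TGANTCA and 4 hold the kappaB consensus. A match is a description of letters and not a binding site.

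Genes that modify, export, trim, crosslink, bind or degrade collagen were taken from 6 lists with 71 genes, of which 50 were tested. Of the 50, 1 was called higher and 6 lower by edgeR, where 1.54% of all tested genes were called higher and 0.856% lower. Their median log2 fold change was -0.04, against 0.007 over all tested genes. All 6 lists were chosen with earlier results of these data known, so shares of calls within them are a description and not a test. Neither the list of prolyl and lysyl modification (0 of 11 tested) nor that of folding and export (0 of 11 tested) held a call. The collagen chaperone Serpinh1 averaged 1236 ± 115 CPM in Ov_SNHG1 libraries and 1250 ± 28.4 CPM in Vector libraries (SD, n = 3; adjusted p = 0.929, edgeR). Among hydroxylases, P4ha1 and P4hb had log2 fold changes of -0.03 and 0.01, P4ha2 0.24 ± 0.06 and Plod2 0.10 ± 0.07 (SE, n = 3 per group). Their adjusted p were 0.828, 0.946, 0.0881 and 0.512 by edgeR. Plod1 had 0.20 ± 0.06 and Plod3 0.18 ± 0.06, with adjusted p of 0.133 and 0.204 by edgeR. Of the 11 tested modification genes, 4 were higher and 1 lower in Ov_SNHG1 libraries without overlap in CPM, where 11.4% and 12.3% of all tested genes were.

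Crosslinking and receptor genes held 3 of the lower calls. Lox, the lysyl oxidase that starts crosslinking of fibrillar collagen, had 1261, 1219 and 1149 CPM in Ov_SNHG1 libraries, against 1520, 1424 and 1458 CPM in Vector libraries. Loxl1 had 89.9, 101.1 and 85.7 CPM in Ov_SNHG1 libraries, against 128.4, 116.7 and 132.9 CPM in Vector libraries. Neither gene's groups overlapped. The log2 fold changes were -0.28 ± 0.05 for Lox (adjusted p = 0.0392, edgeR) and -0.45 ± 0.08 for Loxl1 (adjusted p = 0.0294, edgeR). These were the 2 calls among 8 tested genes of cleavage and crosslinking, where 0.856% of all tested genes were called lower. Leaving out any library other than Ov_SNHG1 replicate 1 gave Lox an adjusted p of 0.0921 to 0.14 by edgeR, and removal of GC and length trends gave 0.0613. Leaving out Ov_SNHG1 replicate 3 or any Vector library gave Loxl1 an adjusted p of 0.056 to 0.125 by edgeR. The propeptide protease Bmp1 had a log2 fold change of -0.04 (adjusted p = 0.847, edgeR). Adamts2 (-0.30 ± 0.07, adjusted p = 0.0834, edgeR) and Adamts14 (0.31 ± 0.09, adjusted p = 0.144, edgeR), of the same list, lay in opposite directions and were not called. DESeq2 called Adamts2 lower (adjusted p = 0.011). So did edgeR without Ov_SNHG1 replicate 1 (adjusted p = 0.0238) and with GC and length trends removed (adjusted p = 0.0354). No other alternative fit called Adamts2.

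Ddr2, a receptor tyrosine kinase for fibrillar collagen, had 568.9, 524.6 and 537.9 CPM in Ov_SNHG1 libraries, against 684.7, 707.2 and 680.5 CPM in Vector libraries. It was the 1 call among 7 tested receptors, where 0.856% of all tested genes were called lower. Its log2 fold change was -0.35 ± 0.05 (SE, n = 3 per group), with an adjusted p of 0.0155 by edgeR. That adjusted p was 0.0583 to 0.0766 by edgeR when any 1 library other than Ov_SNHG1 replicate 1 was left out. The integrin chains Itgb1 (-0.23 ± 0.05, adjusted p = 0.0746, edgeR) and Itga11 (0.22 ± 0.10, adjusted p = 0.312, edgeR) and the endocytic collagen receptor Mrc2 (-0.28 ± 0.09, adjusted p = 0.158, edgeR) were not called. Without Ov_SNHG1 replicate 1 both Itgb1 and Mrc2 were called lower (adjusted p = 0.0312 and 0.018, edgeR), and DESeq2 on all 6 libraries called Itgb1 lower (adjusted p = 0.0134) but not Mrc2 (adjusted p = 0.0582).

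Among proteases, Mmp9, a gelatinase that cleaves denatured and network collagens, had 22.6, 21.5 and 20.8 CPM in Ov_SNHG1 libraries, against 8.0, 9.29 and 9.44 CPM in Vector libraries. The groups were far apart, and the log2 fold change of 1.28 ± 0.10 (SE, n = 3 per group; adjusted p = 0.00066, edgeR) was called in all 15 alternative fits. Mmp2 (-0.35 ± 0.11, adjusted p = 0.166, edgeR) and Mmp14 (-0.29 ± 0.15, adjusted p = 0.348, edgeR) were not called. Without Ov_SNHG1 replicate 1 both were called lower, at adjusted p of 0.0134 and 0.00564 by edgeR. DESeq2 on all 6 libraries called Mmp2 lower (adjusted p = 0.0393) but not Mmp14 (adjusted p = 0.264). The collagenase gene Mmp13 had 0 counts in all 6 libraries.

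Of 9 tested genes for proteins that bind fibrils, 3 were called lower by edgeR, where 0.856% of all tested genes were called lower. Ogn, a small leucine-rich proteoglycan, averaged 406.3 ± 42.7 CPM in Ov_SNHG1 libraries and 616.4 ± 26.3 CPM in Vector libraries (SD, n = 3; log2 fold change -0.60 ± 0.08, adjusted p = 0.00957, edgeR). Fn1, fibronectin, on which collagen I fibrils assemble, averaged 4409 ± 202 CPM in Ov_SNHG1 libraries and 5664 ± 149 CPM in Vector libraries (log2 fold change -0.36 ± 0.05, adjusted p = 0.00996, edgeR). Matn2, matrilin-2, averaged 445.0 ± 21.6 CPM in Ov_SNHG1 libraries and 587.0 ± 13.7 CPM in Vector libraries (log2 fold change -0.40 ± 0.05, adjusted p = 0.0109, edgeR). The calls of Fn1 and Matn2 were lost without Ov_SNHG1 replicate 2 or Vector replicate 1 or 3, at adjusted p of 0.0518 to 0.057 by edgeR. Sparc, a collagen-binding matricellular protein, averaged 1149 ± 14.8 CPM in Ov_SNHG1 libraries and 1193 ± 33.5 CPM in Vector libraries (SD, n = 3; adjusted p = 0.575, edgeR), and Dcn had 4, 5 and 3 counts in Ov_SNHG1 libraries and 3, 3 and 2 counts in Vector libraries.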

How the data were processed

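Per the labels' protocols, poly(A) RNA of 6 GC-1 spg libraries was sequenced as stranded paired-end libraries. The submitters' processing notes name HISAT2, SAMtools 1.3.1, StringTie and the human build GRCh38, whereas all 57180 rows carry mouse identifiers. No source used here gives the counting step or the build of the coordinates. The authors deposited whole-number counts and FPKM values per gene and library in 1 table. Rows with no symbol (525, with 0.194% of counts) each carry a gene identifier and were kept in library sizes and tests. Libraries were grouped by title. The collagen genes, partner lists, markers and tests were chosen with earlier results of these data known.

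Counts were tested by quasi-likelihood in edgeR 4.0.16 (R 4.3.3), with TMM factors of 0.9961 to 1.0046, the filterByExpr filter and a term for group alone. P-values of 14605 genes were adjusted by Benjamini-Hochberg, at 0.05. CPM are scaled by TMM factors. Standard errors are the log2 fold change over the root of F. Alternatives were other size factors, total counts alone, no filter, 1 CPM in 3 libraries, DESeq2 1.42.0, limma-voom 3.58.1, the replicate number as a term, removal of GC and length trends, and leaving out each library. Within groups, chi-square over its degrees of freedom was 11.37 to 18.18, above sampling noise, and every library was kept as its own sample. Depth limits the low members, since 3 counts are 0.142 to 0.193 CPM. The test was tried on simulated counts first. Named genes are all 44 members, partner genes past the threshold (up to 4 per direction and list) and 16 partner genes named whatever their p. Adamts2, Adamts14, Plod1 and Plod3 are named besides these. Values in every library are given for called members and the 8 others with the highest mean CPM. Transcript lengths, GC content and coding runs come from the longest protein-coding transcript of GENCODE M21, and promoters from RefSeq GRCm38.p6, in which 35 of 44 members had an entry.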

Additional observations from a re-analysis of the deposited data

How the results depend on the processing

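Over all genes, 350 were called. The count was 691 with DESeq2, 163 with the replicate block, 171 with the replicate block and GC and length trends removed, 123 to 807 when a library was left out, and 264 to 425 otherwise. The 4 collagen calls became 1 to 10 when a library was left out. The summed collagen ratio of 0.848 (CPM) was 0.905 without Col1a1, Col1a2 and Col3a1. The labels state no pairing by replicate number. Deviations of same-numbered libraries correlated at -0.00409, -0.0302 and -0.021. With 3 libraries per group these values cannot decide whether same-numbered libraries shared a culture or a preparation. Under the block Col5a2 had an adjusted p of 0.104 by edgeR. The calls of Lox, Loxl1, Ddr2 and Prrx1 were lost there too, at adjusted p of 0.0647 to 0.104 by edgeR. Without a filter those of Lox, Loxl1 and Prrx1 were lost, at 0.0551 to 0.0821 by edgeR. With GC and length trends removed Prrx1 had an adjusted p of 0.11 by edgeR. With the block as well, Cd14 had 0.0521 by edgeR. Of 356 member values under an alternative, 325 kept direction and side of the threshold, 12 lost the call, 8 gained it and 11 changed sign. Most of the 356 values are of members not called in the main fit, which had no call to lose. Over 15 alternative fits each, Col5a2 lost its call in 8, Col1a2 in 2 and Col3a1 in 2, and Col8a1 kept its call throughout.

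Sign changes were near 0 and none was called. With GC and length trends removed, the log2 fold changes were -0.01 for Col18a1, -0.03 for Col9a3, 0.00462 for P4ha1 and -0.04 for P4hb, and with the replicate block as well -0.01, -0.02, 0.00308 and -0.04. Without a filter Col16a1 was 0.00334. Leaving out 1 library gave ranges of -0.15 to 0.02 for Col5a1, -0.05 to 0.04 for Col16a1, -0.00193 to 0.30 for Col5a3, -0.09 to 0.12 for Col18a1, -0.04 to 0.12 for Col9a3, -0.06 to 0.06 for Serpinh1, -0.10 to 0.01 for P4ha1, -0.02 to 0.04 for P4hb and -0.09 to 0.05 for Bmp1. The cause was not tested. Depth limits the 20 untested members, for which no difference was detectable.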
